A study of Mus musculus with 20 samples.

Results

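The 33 genes described here act when a cell copies and divides its chromosomes. They were chosen by name, as known genes of DNA replication and mitosis, from the 42374 genes in the libraries. Of the 33, 32 were abundant enough to be tested (Bub1 was not). They were read in endothelial cells of resting mouse muscle, which carry CD31 and lack CD45 on their surface and came by cell sorting out of an oxidative muscle (soleus) or a glycolytic one (extensor digitorum longus). The 4 groups of 5 libraries were oxidative ECKO, oxidative wild type, glycolytic ECKO and glycolytic wild type, where ECKO stands for the genotype labelled EC specific Atf4-/-. All mice were C57BL/6N, were 8 to 10 weeks old at induction and received 1 mg tamoxifen daily on 5 days, and at least 7 days passed before experiments began. The wild type mice were littermates that carried no Cre and were given the same tamoxifen. The promoter that drives Cre, and how many animals a library stands for, are not given in the sources used here, so the p-values rest on how far these libraries differ among themselves, and that spread may be technical. The labels name no exercise for these samples.

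Most endothelial cells of adult muscle are quiescent, a reversible rest outside the cell cycle. A cell that leaves rest first makes the parts of the replication fork (the Mcm2 to Mcm7 helicase, the Pcna clamp) and the enzymes that supply nucleotides, under the control of E2F factors. Genes of mitosis come on later, from the second gap phase into mitosis, and are held down in resting cells by the DREAM complex at a promoter element called the cell cycle genes homology region (CHR), often beside CCAAT boxes. The proteins then act in order: cyclins A and B with Cdk1 start mitosis, the aurora and polo kinases and the motor proteins build and pull the spindle, and Cdc20 and Ube2c mark proteins for destruction so that the chromosomes can part. For the text, the list was divided into 11 genes of replication and S phase entry (Mcm2 to Mcm7, Pcna, Rrm2, Tyms, Ccne1 and Ccne2) and 22 mitotic genes.

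Promoters of 4 genes that carry the results are shown because they hold the elements of both kinds of gene. Each runs 5′ to 3′ on the gene's strand from 220 bases before the RefSeq transcription start to base 20 after it (GRCm38.p6), and capitals mark matches to 3 kinds of motif. The CHR was searched as TTTGAA and as TTTAAA. The CCAAT box, when it lies on the other strand, reads ATTGG here. The E2F motif was searched as TTTCCCGC and as TTTGGCGC. Mki67 lies at chr7:135716360-135716599, Ccnb2 at chr9:70421535-70421774, Cdk1 at chr10:69352893-69353132 and Mcm6 at chr1:128359686-128359925, all on the minus strand.
Mki67: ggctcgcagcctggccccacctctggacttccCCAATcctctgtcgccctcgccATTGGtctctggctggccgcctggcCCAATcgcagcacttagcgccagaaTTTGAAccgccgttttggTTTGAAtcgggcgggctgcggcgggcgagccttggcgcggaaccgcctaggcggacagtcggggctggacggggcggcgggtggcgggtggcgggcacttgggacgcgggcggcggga
Ccnb2: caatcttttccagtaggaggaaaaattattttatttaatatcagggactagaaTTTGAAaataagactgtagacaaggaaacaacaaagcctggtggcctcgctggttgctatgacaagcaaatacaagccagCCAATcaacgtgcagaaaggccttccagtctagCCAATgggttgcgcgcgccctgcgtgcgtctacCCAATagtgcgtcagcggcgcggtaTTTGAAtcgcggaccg
Cdk1: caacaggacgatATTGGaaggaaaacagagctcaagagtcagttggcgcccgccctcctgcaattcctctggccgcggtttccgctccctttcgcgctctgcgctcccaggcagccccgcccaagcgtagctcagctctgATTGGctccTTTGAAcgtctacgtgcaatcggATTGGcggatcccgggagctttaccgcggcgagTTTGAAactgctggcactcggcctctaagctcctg
Mcm6: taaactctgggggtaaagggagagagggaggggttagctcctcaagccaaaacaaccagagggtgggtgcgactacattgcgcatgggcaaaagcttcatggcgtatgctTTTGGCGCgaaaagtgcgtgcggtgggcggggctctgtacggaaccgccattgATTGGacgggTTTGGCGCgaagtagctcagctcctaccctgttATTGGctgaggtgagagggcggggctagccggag
Mki67, Ccnb2 and Cdk1 each hold 2 TTTGAA and 3 CCAAT elements in these windows, and Mcm6 holds 2 TTTGGCGC and 2 CCAAT elements.

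RefSeq promoter windows of 250 bases before to 50 bases after the start were matched for 26 of the 33 genes, and both strands were searched. Either CHR form was present in 15 of 17 mitotic and 4 of 9 replication genes with a window, against 27.6% of 32851 windows of all genes. TTTGAA alone was present in 12 of 17 mitotic genes and 1 of 9 replication genes (17.9% of all windows), and TTTAAA in 6 and 3 of them (13.2%). CCAAT was present in 15 of 17 and 7 of 9 (37.4% of all windows). The 2 E2F strings were in 0 of 17 mitotic and 4 of 9 replication genes, namely Mcm3, Mcm5, Mcm6 and Mcm7 (1.56% of all windows). Matches to different motifs overlapped in 0 places. The bases just after the start lay in a transcript of the gene in the annotation used for the counts (GENCODE M21) in 16 of the 26 windows. Of the promoters shown, this held for Cdk1 and not for Mki67, Ccnb2 and Mcm6, so positions relative to the start are uncertain there. These are matches of letters, not sites of binding.

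Library totals ran from 8013223 to 21720127 estimated counts. Levels are given as CPM, which are counts scaled to the normalised library size, and differences are log2 fold changes from edgeR's quasi-likelihood test with Benjamini-Hochberg adjustment over 13971 genes, where an adjusted p below 0.05 is a call. Atf4, the deleted gene, was at most 8.70 CPM in the 10 ECKO libraries and at least 243.3 CPM in the 10 wild type libraries. The summed level of 12 endothelial markers was 9512 to 9861 CPM in oxidative ECKO, 8865 to 9296 CPM in oxidative wild type, 8595 to 8657 CPM in glycolytic ECKO and 10080 to 10560 CPM in glycolytic wild type. Y-linked RNA of 4 genes summed to 0.9325 to 65.6 CPM in oxidative ECKO and 0.5962 to 1.546 CPM in glycolytic ECKO, against 106.8 to 118.3 CPM in oxidative and 92.08 to 101.5 CPM in glycolytic wild type, and Xist was at least 17.97 CPM in every ECKO library and at most 0.2744 CPM in wild type. Sex and genotype cannot be told apart in either muscle, and oxidative ECKO libraries 1, 2 and 3 held both Y-linked RNA and Xist.

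Oxidative wild type libraries 3 and 5 stand apart in these genes. The 22 mitotic genes summed to 101.7 CPM in library 3 and 116.6 CPM in library 5, against 27.21, 25.27 and 29.28 CPM in libraries 1, 2 and 4. RNA of other cells was also higher in the same pair: 8 fibroblast genes summed to 309.2 and 332.2 CPM (140.9 to 161.5 CPM in the other three), 5 satellite cell genes to 24.31 and 25.24 CPM (13.12 to 15.27 CPM) and 11 muscle fibre genes to 179.3 and 178.1 CPM (84.39 to 110.9 CPM). The 20 immune genes summed to 422.8 and 408.4 CPM, against 321.1 to 387.7 CPM. Oxidative ECKO libraries 4 and 5 had more fibroblast RNA (429.6 and 417.9 CPM), satellite cell RNA (36.28 and 32.32 CPM) and muscle fibre RNA (235.9 and 238.2 CPM) than that pair. They had less immune RNA (57.56 and 41.65 CPM), with 26.19 and 25.56 CPM of the mitotic genes. The part of other cells in the mitotic values was not tested. Each call on the 33 genes that involves oxidative wild type is therefore also looked at without libraries 3 and 5. Those libraries were picked by the levels of the genes described, and that setting was chosen after the data were seen, so values without them are a description.

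**Figure D1:**
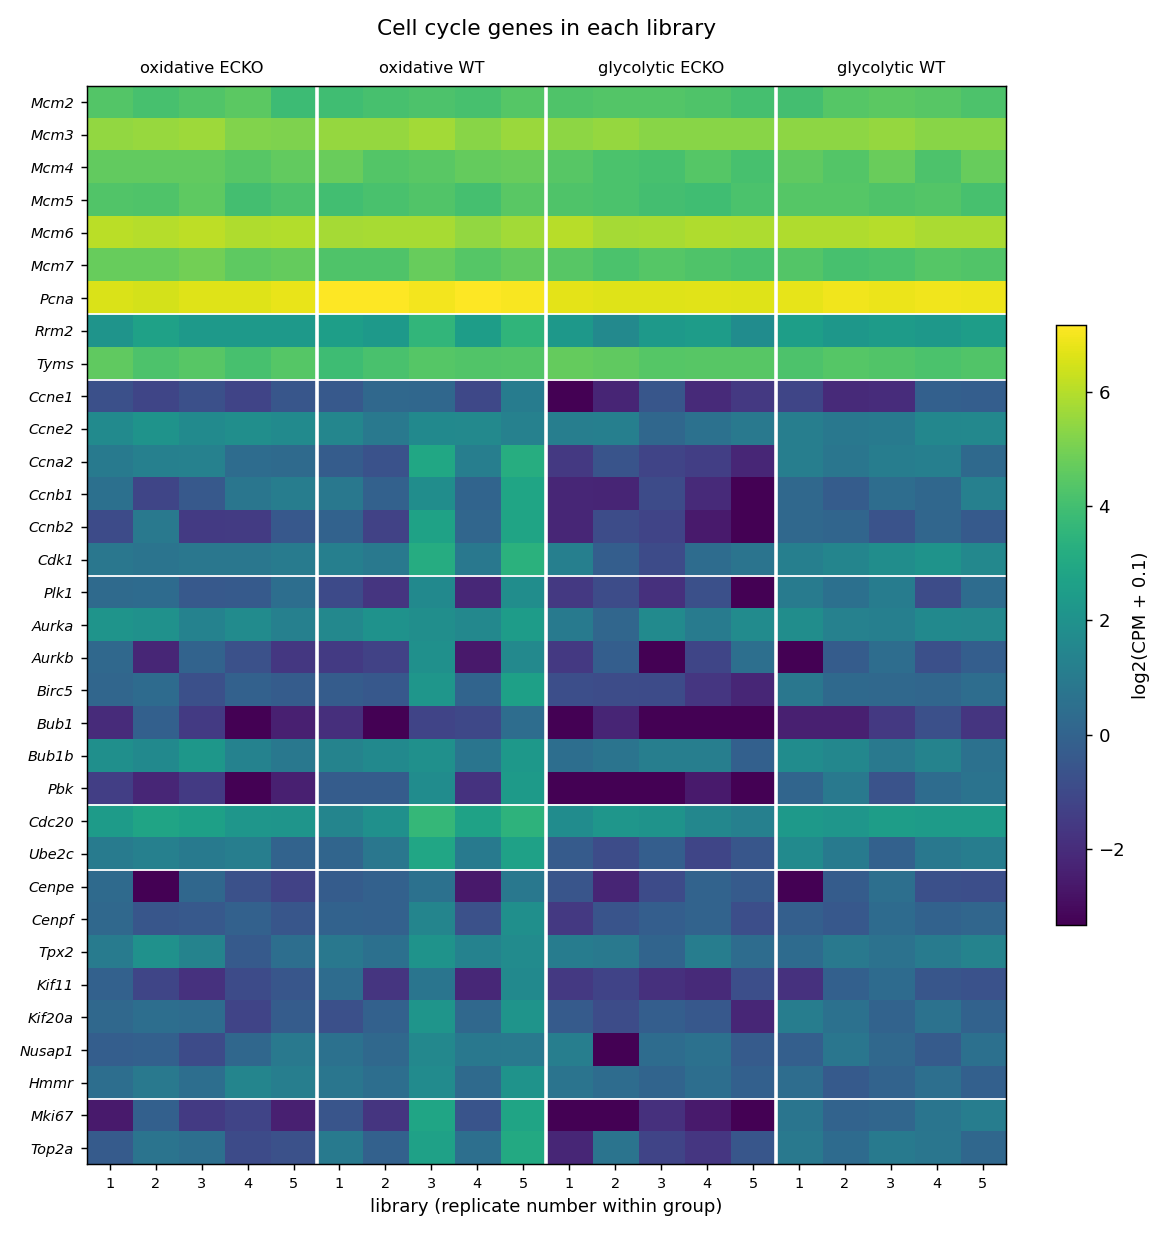
Level of each of the 33 genes (rows, by role) in each of the 20 libraries (columns, by group), as log2(CPM + 0.1) on the colour scale. Oxidative wild type libraries 3 and 5 are brighter than the other libraries for most mitotic genes, and the glycolytic ECKO libraries are darkest for Mki67, Pbk, Bub1 and the B-type cyclins.

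**Figure D2:**
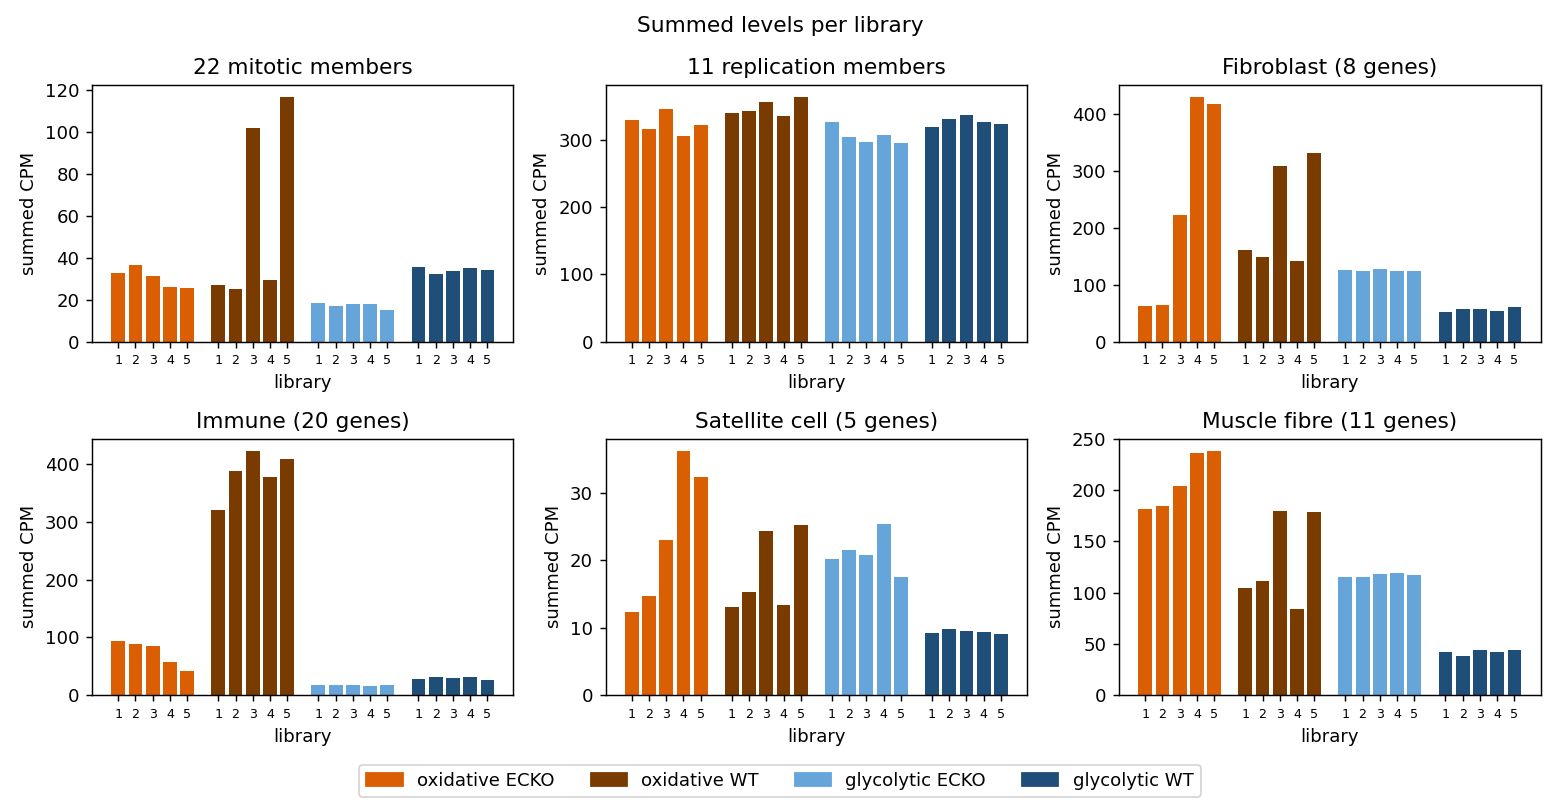
Summed CPM per library (bars, 1 per library) of the 22 mitotic genes, the 11 replication genes and 4 marker lists of other cells, coloured by group. Mitotic sums were 101.7 and 116.6 CPM in oxidative wild type libraries 3 and 5 and at most 36.52 CPM elsewhere.

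Transcripts of mitosis were scarce in all groups, and those of the replication fork were not. Between genes, levels are compared as TPM, which allows for transcript length. Pcna, the sliding clamp of DNA polymerases, was highest of the 33, at 100.7 ± 11.2 TPM in oxidative ECKO, 115.7 ± 5.78 TPM in oxidative wild type, 109.0 ± 3.05 TPM in glycolytic ECKO and 114.3 ± 5.76 TPM in glycolytic wild type (mean ± SD, n = 5 each). The next were Tyms, which makes thymidylate, and the helicase subunits Mcm6 and Mcm3, between 19.02 and 31.8 TPM as group means, and Tyms and Mcm6 did not differ beyond their SD in glycolytic wild type. Mcm7, Mcm5, Mcm4 and Mcm2 followed, between 6.10 and 16.4 TPM, except that in oxidative wild type Cdk1 (7.67 ± 6.93 TPM) stood among them. Every mitotic gene had a group mean under 5 TPM in oxidative ECKO, glycolytic ECKO and glycolytic wild type, and 19 of 22 did in oxidative wild type. The median mitotic gene was at 0.733 TPM in oxidative ECKO, 1.08 TPM in oxidative wild type, 0.341 TPM in glycolytic ECKO and 0.883 TPM in glycolytic wild type. For the 11 replication genes the medians were 9.68, 8.01, 9.23 and 9.65 TPM in the same groups. Cdk1 had the highest mean of the mitotic genes in both wild type groups and Cdc20 in both ECKO groups. Cdk1 and Cdc20 did not differ beyond their SD in oxidative wild type (7.67 ± 6.93 and 5.49 ± 3.37 TPM), glycolytic wild type (4.38 ± 1.06 and 3.99 ± 0.349 TPM) or glycolytic ECKO (2.93 ± 1.67 and 3.21 ± 0.874 TPM). Mki67, whose protein Ki-67 is the usual stain for cycling cells, had the lowest mean of all 33 in oxidative and in glycolytic ECKO. In glycolytic ECKO it stood at 0.00687 ± 0.0107 TPM, listed from 3 counts over the 5 libraries. In sorted bulk RNA, fewer dividing cells and less RNA per dividing cell cannot be told apart.

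**Figure D3:**
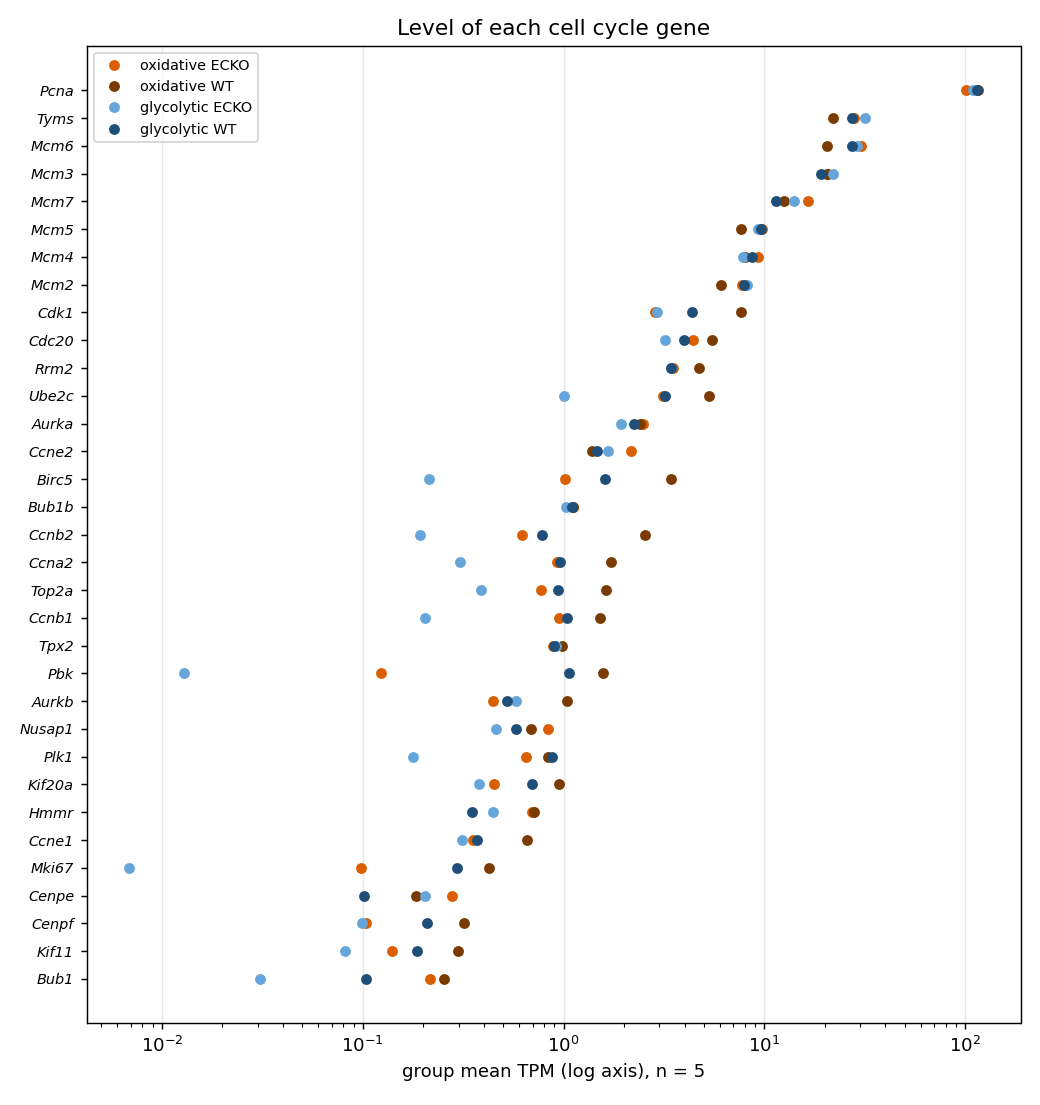
Group mean TPM (n = 5, log axis) of each of the 33 genes, ordered by level, with 1 coloured point per group. Pcna is near 100 TPM in each group, the helicase genes lie between about 6.1 and 30.3 TPM, and most mitotic genes lie under 5 TPM, with glycolytic ECKO far to the left for Mki67 and Pbk.

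In the glycolytic muscle, ECKO endothelium had the lowest summed mitotic transcript level of the 4 groups. The 22 mitotic genes summed to 15.1 to 18.29 CPM (median 17.7) in glycolytic ECKO and to 32.3 to 35.46 CPM (median 34.1) in glycolytic wild type, and the 2 groups did not overlap. Of the 32 genes tested, 10 were called lower and 0 higher in glycolytic ECKO (1 was higher at an unadjusted p below 0.05, and DESeq2 and limma-voom called 0 higher), where 15.1% of all tested genes were called lower and 13.9% higher (29% in either direction). The 10 were Ccna2, Ccnb1, Cdk1, Plk1, Birc5, Pbk, Ube2c and Mki67 among the mitotic genes and Pcna and Mcm4 among the replication genes. The median log2 fold change was -1.35 over the 21 mitotic genes tested, -0.18 over the 11 replication genes and 0.00404 over all genes. In 10 of 32 genes the groups did not overlap, all with the ECKO libraries lower (11.9% of all genes were lower and 10.6% higher without overlap). Of the tested genes, 9 reached the low-count cutoff of 0.736 CPM in 0 glycolytic ECKO libraries and were tested through the other groups, so these counts describe the genes and are no support for a direction. The limma-voom test called 4 genes lower, and Ccnb1, Mki67, Pbk and Pcna kept their calls in every alternative run that tested them. A fit of the glycolytic groups alone tested 7 of the 10 called genes and kept 7. Of the called genes, Ccna2, Ccnb1, Plk1, Birc5, Pbk and Mki67 were among the 9 tested through the other groups. Their kept calls are no support for a direction either. Because all 4 groups share 1 fit, the spread of oxidative wild type enters this test too. Without oxidative wild type libraries 3 and 5, 14 genes were called lower (14.8% of all genes), namely the 10 and Ccnb2, Cdc20, Kif20a and Top2a, at nearly the same fold changes with smaller standard errors.

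The cyclins and their kinase showed the glycolytic difference in several members. Ccna2 (cyclin A2; ENSMUSG00000027715.9, chr3:36564865-36572150, minus strand) had 0.234, 0.554, 0.341, 0.282 and 0.119 CPM in glycolytic ECKO, against 2.13, 1.64, 2.08, 2.20 and 1.09 CPM in glycolytic wild type. Ccnb1 (cyclin B1; ENSMUSG00000041431.16, chr13:100778650-100786570, minus strand) had 0.117, 0.111, 0.426, 0.141 and 0 CPM in glycolytic ECKO, against 1.07, 0.730, 1.23, 1.04 and 2.24 CPM in glycolytic wild type. Both were lower in every ECKO library than in any wild type library, with differences of -2.52 ± 0.69, SE, adjusted p = 0.00673 for Ccna2 and -2.82 ± 0.73, SE, adjusted p = 0.00467 for Ccnb1 on the log2 scale. Ccnb2 (cyclin B2; ENSMUSG00000032218.7, chr9:70407692-70421547, minus strand) had 0.117, 0.443, 0.341, 0.0705 and 0 CPM in glycolytic ECKO, against 1.07, 0.958, 0.539, 0.990 and 0.677 CPM in glycolytic wild type. Its groups did not overlap either, but its test did not pass (-2.08 ± 0.87, SE, adjusted p = 0.0758) with all libraries and did without oxidative wild type libraries 3 and 5 (-2.07, adjusted p = 0.0146). Cdk1, the kinase that starts mitosis (ENSMUSG00000019942.13, chr10:69335146-69352938, minus strand), had 2.23, 0.775, 0.426, 1.20 and 1.55 CPM in glycolytic ECKO, against 2.22, 2.60, 3.47, 4.12 and 2.86 CPM in glycolytic wild type. Part of the Ccnb1 transcripts (27.8% of 31-base words) is shared with other genes, chiefly the pseudogene Ccnb1-ps, so its level is uncertain. For Cdk1, ECKO library 1 lay within the wild type range, and the call of -1.35 ± 0.47, SE, adjusted p = 0.0302 was lost when ECKO library 2, 3 or 4 or wild type library 3 or 4 was left out (adjusted p = 0.0523 to 0.0868). The cyclin E genes, which act at S phase entry, were not called: Ccne1 ranged from 0 to 0.596 CPM in glycolytic ECKO and 0.137 to 0.825 CPM in glycolytic wild type. Ccne2 (ENSMUSG00000028212.16, chr4:11191351-11204779, plus strand) had 2.11, 2.21, 1.02, 1.41 and 1.78 CPM in glycolytic ECKO, against 2.13, 1.73, 1.85, 2.80 and 2.86 CPM in glycolytic wild type, with overlap.

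Among mitotic kinases and the checkpoint, Pbk and Birc5 separated the glycolytic groups. Pbk, a kinase made in dividing cells (ENSMUSG00000022033.9, chr14:65805837-65817822, plus strand), had 0, 0, 0, 0.0705 and 0 CPM in glycolytic ECKO, against 0.978, 1.78, 0.539, 1.21 and 1.51 CPM in glycolytic wild type. That is 1 count in ECKO against 108 in wild type, or 1.49% of the wild type level (95% exact interval 0.0374% to 8.48%, for counting error only), with a fitted log2 value of -5.46 ± 1.1, SE, adjusted p = 0.000394. Birc5, the survivin gene of the chromosomal passenger complex (ENSMUSG00000017716.15, chr11:117849251-117855743, plus strand), had 0.469, 0.443, 0.426, 0.212 and 0.119 CPM in glycolytic ECKO, against 1.69, 1.09, 1.08, 0.990 and 1.25 CPM in glycolytic wild type. No ECKO library reached the wild type range, and the difference was -1.84 ± 0.61, SE, adjusted p = 0.0252, a call lost without ECKO library 4 or 5 (adjusted p = 0.0678 and 0.0604). Plk1, the polo kinase (ENSMUSG00000030867.7, chr7:122159439-122169873, plus strand), had 0.234, 0.443, 0.170, 0.494 and 0 CPM in glycolytic ECKO, against 1.96, 1.37, 2.003, 0.440 and 1.20 CPM in glycolytic wild type. Wild type library 4 lay within the ECKO range, and the call (-2.23 ± 0.74, SE, adjusted p = 0.0254) was lost without ECKO library 3 or 5 or wild type library 3 (adjusted p = 0.0535 to 0.0603). Plk1 shares 18.7% of its 31-base words, chiefly with the pseudogene Plk-ps1, and is uncertain as well. The aurora kinases were not called, with Aurka at 0.997 to 3.21 CPM in ECKO and 2.23 to 3.47 CPM in wild type and Aurkb at 0 to 1.31 and 0 to 1.23 CPM. Nor was the checkpoint kinase gene Bub1b, at 0.832 to 2.13 CPM in ECKO and 1.41 to 3.29 CPM in wild type. Bub1, too low to test, had 1 count in glycolytic ECKO against 19 in glycolytic wild type, or 8.47% (interval 0.204% to 53.3%).

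Ube2c, the ubiquitin-conjugating enzyme that works with the anaphase-promoting complex (ENSMUSG00000001403.13, chr2:164769898-164778822, plus strand), had 0.703, 0.443, 0.766, 0.353 and 0.595 CPM in glycolytic ECKO, against 3.11, 1.87, 0.847, 1.76 and 2.08 CPM in glycolytic wild type. All ECKO libraries were below all wild type libraries (-1.75 ± 0.52, SE, adjusted p = 0.012). Of the 31-base words of its transcripts, 25.3% also occur in other genes, most of them in Tnnc2, a muscle troponin gene on the other strand, so its level is uncertain. Cdc20, which activates the same complex, had 2.26 to 4.43 CPM in ECKO and 4.47 to 5.62 CPM in wild type, without overlap but also without a call (-0.59 ± 0.30, SE, adjusted p = 0.15), which it gained without that pair of oxidative libraries (-0.59, adjusted p = 0.0431). Cdc20 shares 26.7% of its 31-base words with other genes, chiefly Gm7856, and its level is uncertain. Mki67 (ENSMUSG00000031004.8, chr7:135689784-135716361, minus strand) had 0, 0, 0.170, 0.0705 and 0 CPM in glycolytic ECKO, against 1.60, 0.912, 1.002, 1.59 and 2.08 CPM in glycolytic wild type. It was undetected in 3 of 5 ECKO libraries and present in every wild type library, 3 counts against 120, or 4.03% of the wild type level (interval 0.819% to 12%), with a fitted value of -4.45 ± 1.1, SE, adjusted p = 0.00313. Top2a, which untangles chromosomes (ENSMUSG00000020914.17, chr11:98992943-99024189, minus strand), had 0.117, 1.55, 0.341, 0.212 and 0.595 CPM in glycolytic ECKO, against 1.78, 1.19, 1.85, 1.65 and 1.04 CPM in glycolytic wild type. ECKO library 2 lay within the wild type range, and the test did not pass (-1.45 ± 0.62, SE, adjusted p = 0.0837), though it did without the oxidative pair (-1.44, adjusted p = 0.0272).

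The 7 genes of the spindle, the kinetochore and the motors gave 0 calls in glycolytic muscle by edgeR, DESeq2 or limma-voom with all libraries, and 1 had an unadjusted p below 0.05. Kif20a, a motor of the midzone, was lower in all ECKO libraries (0.703, 0.443, 0.766, 0.635 and 0.119 CPM) than in all wild type libraries (2.04, 1.41, 0.924, 1.43 and 0.885 CPM) without passing the test (-1.25 ± 0.55, SE, adjusted p = 0.0893). It was called without oxidative wild type libraries 3 and 5 (-1.25, adjusted p = 0.0235). The kinesin Kif11, which pushes the spindle poles apart, had 0.141 to 0.476 CPM in ECKO and 0.178 to 1.16 CPM in wild type. The kinetochore gene Cenpe had 0.111 to 0.917 CPM in ECKO and 0 to 1.31 CPM in wild type, and Cenpf, of the same structure, had 0.234, 0.554, 0.766, 0.917 and 0.476 CPM in glycolytic ECKO, against 0.800, 0.639, 1.16, 0.880 and 0.989 CPM in glycolytic wild type. All 3 genes overlapped between the groups. The spindle assembly factors overlapped as well: Tpx2 had 0.937 to 2.04 CPM in ECKO and 1.16 to 2.45 CPM in wild type, and Nusap1 0 to 2.11 and 0.715 to 1.64 CPM. Hmmr, which binds the spindle and hyaluronan (ENSMUSG00000020330.16, chr11:40701395-40733422, minus strand), had 1.52, 1.22, 0.937, 1.27 and 0.832 CPM in glycolytic ECKO, against 1.24, 0.684, 0.924, 1.32 and 0.833 CPM in glycolytic wild type, also with overlap.

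RNA of other cells moved with genotype in these libraries, not all in the direction of the mitotic genes. The immune genes summed to 15.3 to 17.55 CPM in glycolytic ECKO and 25.56 to 31.89 CPM in glycolytic wild type. Of the 16 tested, 4 were called lower, 0 higher and 12 not called. Lyz2 overlapped, at 7.55 to 9.52 CPM in ECKO and 8.24 to 10.9 CPM in wild type. Erythroid genes summed to 2268 to 2492 CPM in ECKO and 3790 to 4013 CPM in wild type. The fibroblast genes were at 123.2 to 127.9 CPM in ECKO and 52.09 to 60.28 CPM in wild type. The satellite cell genes were at 17.6 to 25.39 CPM and 9.058 to 9.854 CPM, and the muscle fibre genes at 114.8 to 118.8 CPM and 38.09 to 43.68 CPM. The 8 mural cell genes summed to 1969 to 2035 CPM in ECKO and 828 to 844.3 CPM in wild type. Of these 8, 2 were called higher, 1 lower and 5 not called (median log2 fold change -0.0218). Acta2 had 1010 to 1040 CPM in ECKO and 186 to 190 CPM in wild type, and Rgs5 355 to 376 CPM and 397 to 426 CPM. Ptprc, which encodes CD45, was at most 0.141 CPM in glycolytic ECKO and 0.275 CPM in glycolytic wild type. Their part in the result was not tested.

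**Figure D4:**
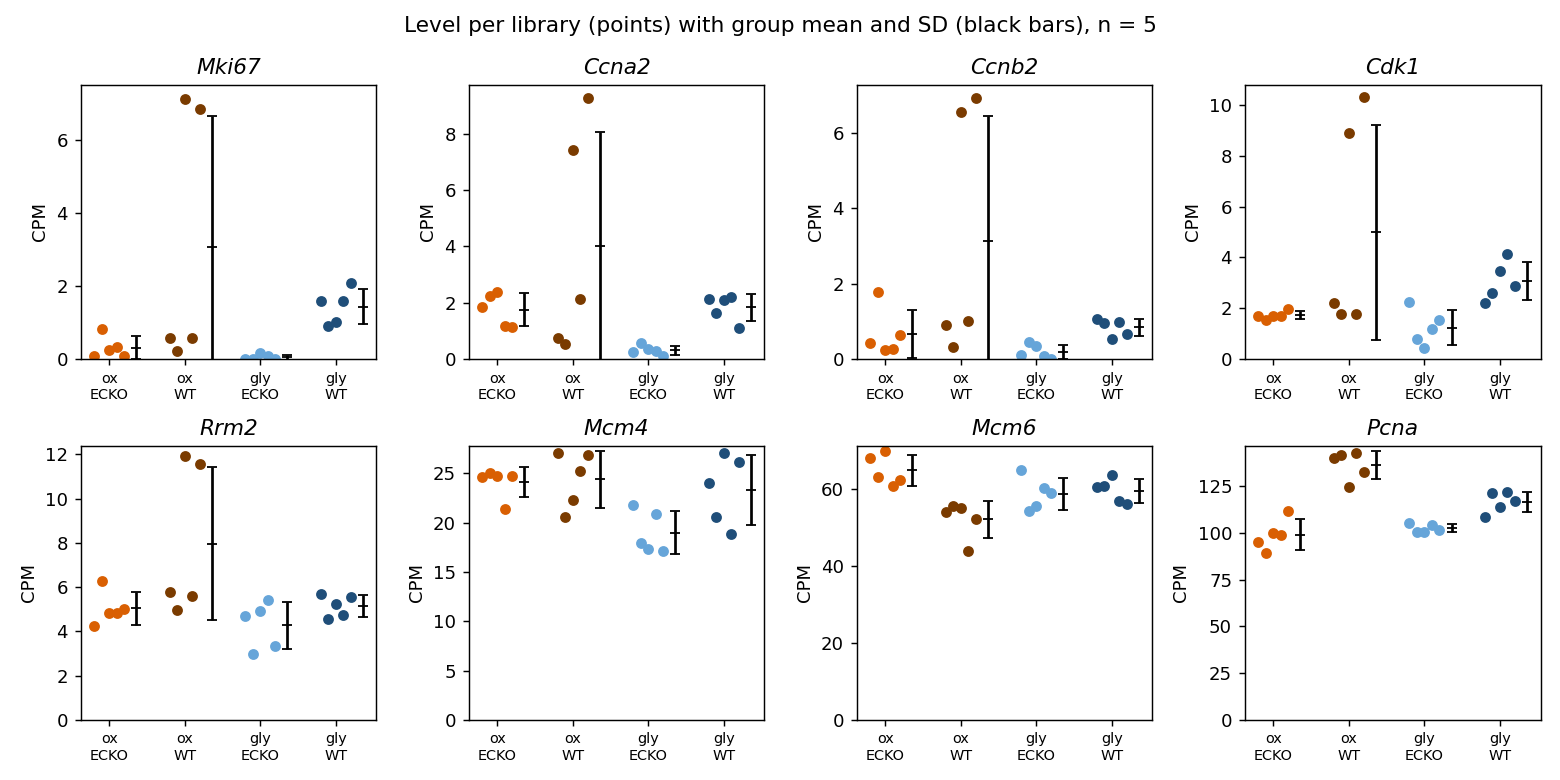
CPM in each library (points) with the group mean and SD (black bars, drawn down to 0, n = 5) for 5 genes of the cell cycle engine and nucleotide supply and 3 of the replication fork. In Mki67, Ccna2, Ccnb2, Cdk1 and Rrm2 libraries 3 and 5 lift the oxidative wild type mean, with 7.13 and 6.86 CPM in Mki67 against at most 0.570 CPM in its other three libraries.

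In the oxidative muscle the means of mitotic genes also differed, but through 2 of the 5 wild type libraries, while Pcna and Mcm6 differed with and without them. Of the 32 genes tested, 10 were called lower and 2 higher in oxidative ECKO, where 17.4% of all genes were called lower and 14.6% higher (32% in either direction). The median log2 fold change was -1.20 over the 21 mitotic genes, 0.07 over the 11 replication genes and 0.0156 over all genes. The 22 mitotic genes summed to 25.56 to 36.52 CPM in oxidative ECKO and to 25.27 to 116.6 CPM in oxidative wild type. Of 32 genes, 1 was lower and 2 were higher in oxidative ECKO without overlap (12% and 8.2% of all genes), and none of these was mitotic. Without wild type libraries 3 and 5, 1 gene was called lower (Pcna) and 3 were called higher (Mcm6, Mcm7 and Plk1), where 15.5% and 12.5% of all genes were called. With all libraries, limma-voom called 6 lower, and a fit of the oxidative groups alone called 5 lower and 1 higher.

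RNA of other cells differed between the oxidative groups too. The immune genes summed to 41.65 to 94.09 CPM in oxidative ECKO and 321.1 to 422.8 CPM in oxidative wild type, and the erythroid genes to 2506 to 4278 CPM and 4402 to 6753 CPM. Ptprc was 0.137 to 0.424 CPM in oxidative ECKO and 1.9 to 3.46 CPM in oxidative wild type, and the T cell gene Cd3e was at 0 in all 5 oxidative ECKO libraries and in 4 of the 5 oxidative wild type libraries. The muscle fibre genes were at 181 to 238.2 CPM in ECKO and 84.39 to 179.3 CPM in wild type, and the mural cell genes at 765.3 to 1180 CPM and 576.2 to 673.6 CPM. The fibroblast genes (62.99 to 429.6 CPM in ECKO and 140.9 to 332.2 CPM in wild type) and the satellite cell genes (12.37 to 36.28 CPM and 13.12 to 25.24 CPM) overlapped. Their part in the oxidative result was not tested.

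The 8 mitotic genes called lower in oxidative ECKO were Mki67, Pbk, Ccnb2, Top2a, Birc5, Cdk1, Kif20a and Cenpf. Mki67 had 0.0707, 0.827, 0.242, 0.339 and 0.0914 CPM in oxidative ECKO, against 0.570, 0.211, 7.13, 0.566 and 6.86 CPM in oxidative wild type. Pbk had 0.283, 0.118, 0.242, 0 and 0.0914 CPM in oxidative ECKO, against 0.733, 0.737, 3.28, 0.189 and 5.08 CPM in oxidative wild type. Ccnb2 had 0.424, 1.77, 0.242, 0.254 and 0.640 CPM in oxidative ECKO, against 0.896, 0.316, 6.57, 1.005 and 6.93 CPM in oxidative wild type. In each of the 3 genes wild type libraries 3 and 5 lay above every other oxidative library, and at least 1 of the other three wild type libraries lay within the ECKO range. The fitted differences were -3.53 ± 0.76, SE, adjusted p = 0.000666, for Mki67, -3.67 ± 0.71, SE, adjusted p = 0.000194, for Pbk and -2.39 ± 0.63, SE, adjusted p = 0.00435, for Ccnb2. Pbk reached the low-count cutoff in 0 ECKO libraries of either muscle and was tested through the wild type libraries where it is high. Without libraries 3 and 5 the differences were -0.79 (adjusted p = 0.404), -1.74 (adjusted p = 0.053) and -0.32 (adjusted p = 0.738).

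Top2a had 0.707, 1.54, 1.33, 0.424 and 0.503 CPM in oxidative ECKO, against 1.87, 0.842, 6.22, 1.32 and 8.16 CPM in oxidative wild type. Birc5 had 0.990, 1.18, 0.485, 0.848 and 0.732 CPM in oxidative ECKO, against 0.733, 0.632, 4.47, 0.943 and 6.17 CPM in oxidative wild type. Cdk1 had 1.70, 1.54, 1.70, 1.70 and 1.97 CPM in oxidative ECKO, against 2.20, 1.79, 8.87, 1.76 and 10.3 CPM in oxidative wild type. The Cdk1 levels of the ECKO libraries lay close together, and wild type libraries 2 and 4 were among them. The 3 differences were -2.10 ± 0.53, SE, adjusted p = 0.00306, for Top2a, -1.68 ± 0.49, SE, adjusted p = 0.00926, for Birc5 and -1.54 ± 0.42, SE, adjusted p = 0.00535, for Cdk1. Without wild type libraries 3 and 5 they were -0.64 (adjusted p = 0.382), 0.07 (adjusted p = 0.999) and -0.14 (adjusted p = 0.791). Birc5 was lost already without library 5 alone (adjusted p = 0.0815).

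Kif20a had 1.06, 1.30, 1.21, 0.339 and 0.732 CPM in oxidative ECKO, against 0.489, 0.842, 4.33, 1.07 and 4.25 CPM in oxidative wild type. Cenpf, a large protein of the kinetochore (ENSMUSG00000026605.14, chr1:189640606-189688086, minus strand), had 1.06, 0.591, 0.666, 0.848 and 0.594 CPM in oxidative ECKO, against 0.896, 0.842, 2.65, 0.503 and 3.64 CPM in oxidative wild type. Both overlapped between the groups, and the differences of -1.28 ± 0.48, SE, adjusted p = 0.0418, for Kif20a and -1.20 ± 0.43, SE, adjusted p = 0.0329, for Cenpf turned to 0.18 and 0.03 without libraries 3 and 5. Either call was lost when 1 of several single libraries was left out, among them wild type library 3 (adjusted p = 0.187 for Kif20a and 0.108 for Cenpf) and wild type library 5 (0.176 and 0.208). Exons of Kif20a overlap the gene Cdc23 on the other strand over 977 bases, and its level is uncertain.

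Other mitotic genes were raised in the same wild type pair without a call between the genotypes. Ccna2 had 1.84, 2.25, 2.36, 1.19 and 1.14 CPM in oxidative ECKO, against 0.733, 0.526, 7.41, 2.14 and 9.26 CPM in oxidative wild type. Ccnb1 had 1.34, 0.355, 0.666, 1.61 and 2.10 CPM in oxidative ECKO, against 1.71, 0.842, 3.42, 0.943 and 6.997 CPM in oxidative wild type. Ube2c had 1.98, 2.25, 1.82, 2.12 and 0.914 CPM in oxidative ECKO, against 0.978, 1.69, 7.27, 1.89 and 6.31 CPM in oxidative wild type. Wild type libraries 3 and 5 were again the highest, and the tests gave -1.24 ± 0.49, SE, adjusted p = 0.055, for Ccna2, -1.15 ± 0.49, SE, adjusted p = 0.0734, for Ccnb1 and -1.05 ± 0.42, SE, adjusted p = 0.0549, for Ube2c. Plk1 had 1.13, 1.18, 0.666, 0.678 and 1.28 CPM in oxidative ECKO, against 0.407, 0.211, 3.07, 0.126 and 3.43 CPM in oxidative wild type. Its wild type libraries 1, 2 and 4 lay below all ECKO libraries and libraries 3 and 5 above them, so the difference (-0.59 ± 0.59, SE, adjusted p = 0.491) turned to 1.99 (adjusted p = 0.0182) without libraries 3 and 5. Hmmr had 1.27, 1.77, 1.27, 2.63 and 2.15 CPM in oxidative ECKO, against 1.63, 1.26, 3.21, 1.13 and 4.12 CPM in oxidative wild type. Wild type libraries 3 and 5 were above all ECKO libraries, and the others overlapped (-0.34 ± 0.33, SE, adjusted p = 0.466).

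The remaining mitotic genes overlapped and were not called in oxidative muscle. Aurka had 2.29 to 4.17 CPM in ECKO and 2.85 to 5.49 CPM in wild type, and Aurkb 0.118 to 1.06 and 0.0628 to 3.70 CPM. For Bub1b the ranges were 1.74 to 4.54 CPM in ECKO and 1.57 to 4.73 CPM in wild type, for Cdc20 4.30 to 6.86 and 2.61 to 12.6 CPM, and for Cenpe 0 to 1.13 and 0.0628 to 1.72 CPM. For Tpx2 they were 0.678 to 3.90 CPM in ECKO and 1.37 to 4.05 CPM in wild type, for Kif11 0.182 to 0.848 and 0.126 to 3.02 CPM, and for Nusap1 0.424 to 1.78 and 1.05 to 2.87 CPM. Bub1 had 15 counts in ECKO against 31 in wild type, or 44.3% (interval 22.2% to 84.5%). In all 8 of the tested ones the highest value came from wild type library 3 or 5.

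**Figure D5:**
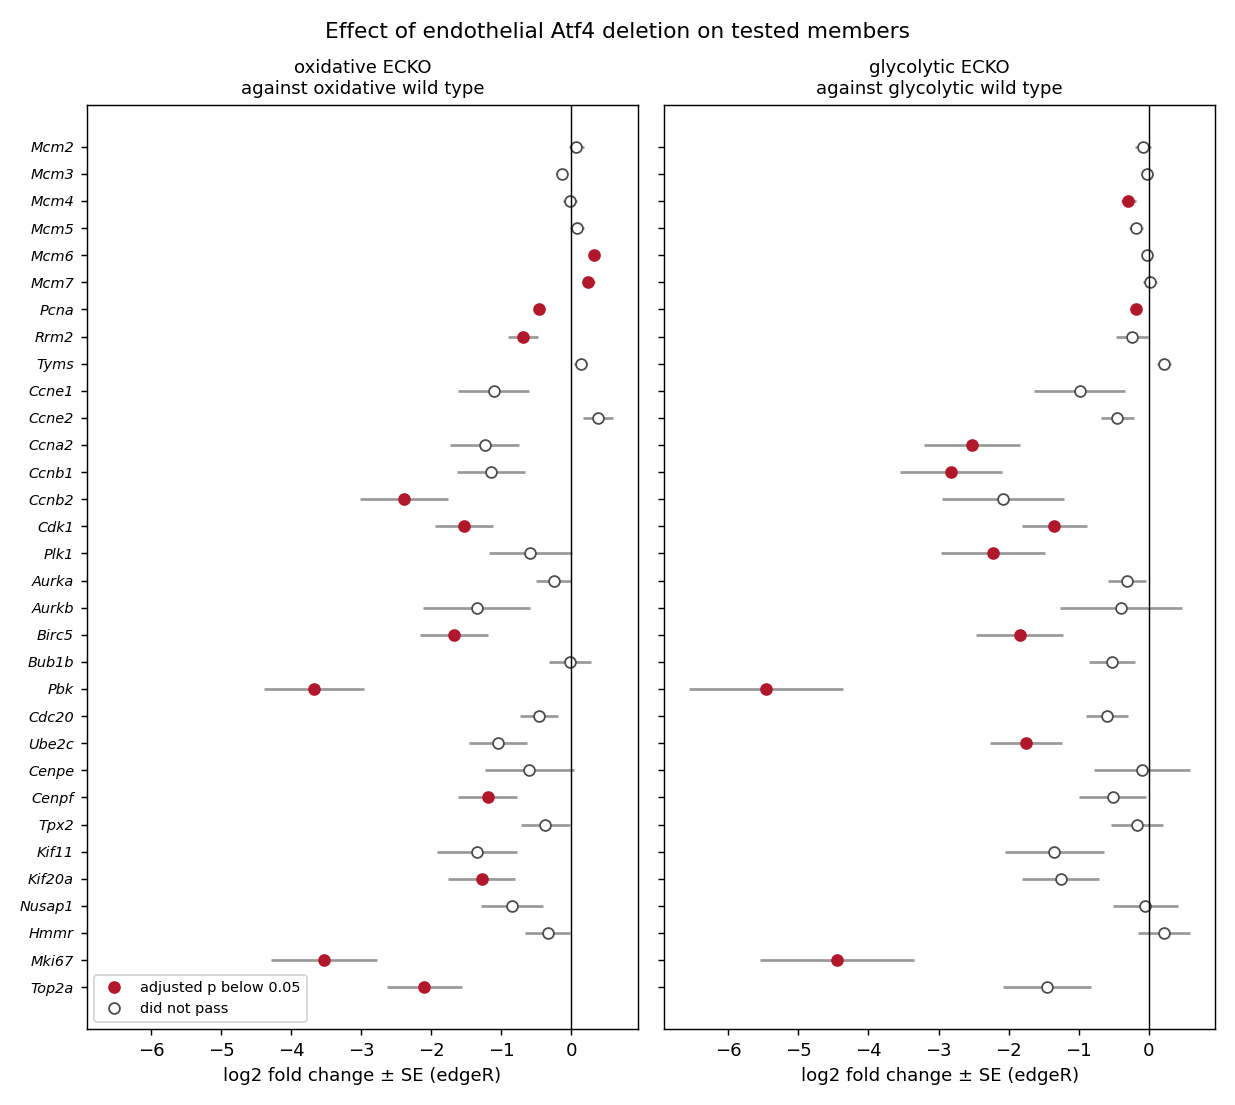
Log2 fold change ± SE (edgeR) of ECKO over wild type for the 32 tested genes, in oxidative muscle (left) and glycolytic muscle (right), with filled points for adjusted p below 0.05. The Mcm genes and Pcna lie between -0.46 and 0.32, Ccne1 lies at -1.11 in oxidative and -0.98 in glycolytic muscle without a call, and mitotic genes spread to the left, down to -3.67 in oxidative and -5.46 in glycolytic muscle for Pbk.

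Genes of the replication fork moved by small amounts, and not all one way. Pcna (ENSMUSG00000027342.14, chr2:132249162-132253314, minus strand) had 95.2, 89.3, 99.8, 98.9 and 111.8 CPM in oxidative ECKO, against 140.1, 141.6, 124.7, 142.9 and 132.7 CPM in oxidative wild type. In glycolytic muscle it had 105.2, 100.8, 100.7, 104.4 and 101.5 CPM in glycolytic ECKO, against 108.8, 121.2, 113.9, 121.9 and 117.2 CPM in glycolytic wild type. In both muscles every ECKO library lay below every wild type library, with log2 differences of -0.46 ± 0.052, SE, adjusted p = 1.05e-07 in oxidative and -0.19 ± 0.052, SE, adjusted p = 0.00823 in glycolytic muscle, and both calls held in every alternative run. Without oxidative wild type libraries 3 and 5 the oxidative value was -0.51. Pcna shares 23.3% of its 31-base words with other genes, chiefly the pseudogene Pcna-ps2, which makes its level uncertain.

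Mcm6, a subunit of the helicase that opens DNA (ENSMUSG00000026355.11, chr1:128331590-128359664, minus strand), had 68.01, 63, 69.9, 60.9 and 62.2 CPM in oxidative ECKO, against 54.01, 55.6, 54.99, 43.9 and 52.1 CPM in oxidative wild type. In glycolytic muscle its levels were 64.9, 54.4, 55.5, 60.2 and 58.9 CPM in glycolytic ECKO, against 60.4, 60.8, 63.6, 56.7 and 56.1 CPM in glycolytic wild type. It was higher in every oxidative ECKO library than in any oxidative wild type library (0.32 ± 0.064, SE, adjusted p = 0.000302), a call kept in every alternative run, and overlapped in glycolytic muscle (-0.02 ± 0.064, SE, adjusted p = 0.867). Mcm7 (ENSMUSG00000029730.16, chr5:138164583-138172422, minus strand) had 26.4, 26.2, 29.9, 23.6 and 25.4 CPM in oxidative ECKO, against 19.5, 19.4, 26.3, 20.8 and 24.9 CPM in oxidative wild type. Wild type libraries 3 and 5 lay within the ECKO range and libraries 1, 2 and 4 below it, for a difference of 0.24 ± 0.091, SE, adjusted p = 0.041. That call was lost without any one of oxidative ECKO libraries 1, 2 or 3, oxidative wild type libraries 1, 2 or 4, glycolytic ECKO library 4 or glycolytic wild type library 3 (adjusted p = 0.0507 to 0.137). It was 0.40 (adjusted p = 0.0018) without oxidative wild type libraries 3 and 5. In glycolytic muscle Mcm7 had 21.8, 18.4, 20.7, 19.4 and 17.5 CPM in glycolytic ECKO, against 20.4, 17.4, 18.4, 21 and 19.5 CPM in glycolytic wild type, with overlap. Of its 31-base words, 33.4% are shared, chiefly with the pseudogene Gm5487, and its level is uncertain.

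Mcm4 (ENSMUSG00000022673.5, chr16:15623897-15637400, minus strand) had 21.8, 17.9, 17.3, 20.9 and 17.1 CPM in glycolytic ECKO, against 24, 20.5, 27.1, 18.9 and 26.1 CPM in glycolytic wild type. The groups overlapped, and the call of -0.29 ± 0.10, SE, adjusted p = 0.0363 was lost without any one of ECKO libraries 2, 3 and 5 or wild type libraries 1, 3 and 5 (adjusted p = 0.0614 to 0.108). In oxidative muscle Mcm4 had 24.6, 25.1, 24.8, 21.4 and 24.7 CPM in ECKO and 27.1, 20.5, 22.3, 25.3 and 26.9 CPM in wild type, which overlap (-0.02 ± 0.10, SE, adjusted p = 0.902). Rrm2, the small subunit of ribonucleotide reductase (ENSMUSG00000020649.11, chr12:24708241-24714146, plus strand), had 4.24, 6.26, 4.85, 4.83 and 5.03 CPM in oxidative ECKO, against 5.78, 4.95, 11.9, 5.59 and 11.6 CPM in oxidative wild type. Wild type libraries 3 and 5 alone stood above ECKO. The difference was -0.69 ± 0.21, SE, adjusted p = 0.0156, and -0.13 (adjusted p = 0.657) without that pair, with adjusted p = 0.0824 without library 3 alone and 0.07 without library 5 alone. In glycolytic muscle Rrm2 overlapped, at 4.69, 2.99, 4.94, 5.43 and 3.33 CPM in glycolytic ECKO, against 5.69, 4.56, 5.24, 4.73 and 5.57 CPM in glycolytic wild type.

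Mcm2, Mcm3, Mcm5 and Tyms were not called by edgeR in any of the 5 comparisons, with 1 of their 20 tests at an unadjusted p below 0.05. Mcm3 had 35.3 to 48.6 CPM in oxidative ECKO, 39.8 to 51.98 CPM in oxidative wild type, 38.8 to 44.6 CPM in glycolytic ECKO and 39.6 to 44.9 CPM in glycolytic wild type. Mcm2 spanned 14.4 to 22.6, 15.5 to 20.7, 16.5 to 20.2 and 16.4 to 22.8 CPM in the same order of groups, Mcm5 16.1 to 23.3, 15.8 to 21.9, 15.5 to 19.5 and 17.2 to 21.2 CPM, and Tyms 16.9 to 24.4, 14.99 to 21.1, 20.9 to 25.9 and 18.2 to 21.1 CPM. Of the counts of Tyms, 30.5% lay in transcripts annotated for decay and 26.5% in transcripts with a retained intron. Ccne1 and Ccne2 were not called between the genotypes in oxidative muscle either: Ccne1 ranged from 0.339 to 0.594 CPM in ECKO and 0.377 to 1.99 CPM in wild type, and Ccne2 had 3.11, 4.02, 3.15, 3.48 and 3.15 CPM in oxidative ECKO, against 2.69, 1.79, 3.004, 2.95 and 2.33 CPM in oxidative wild type. For Ccne2 every ECKO library was above every wild type library (0.38 ± 0.21, SE, adjusted p = 0.187).

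Between the muscles of wild type mice, 5 of 32 genes were called higher and 1 lower in oxidative endothelium, where 16.4% of all genes were called higher and 15.9% lower (32.4% in either direction). The 6 were Pcna (0.22 ± 0.051, SE, adjusted p = 0.00131), Rrm2 (0.65 ± 0.21, SE, adjusted p = 0.0204), Ccnb2 (1.91 ± 0.59, SE, adjusted p = 0.0139), Hmmr (1.21 ± 0.34, SE, adjusted p = 0.00728), Top2a (1.33 ± 0.49, SE, adjusted p = 0.039) and, lower, Mcm6 (-0.19 ± 0.064, SE, adjusted p = 0.0207). Pcna was higher in every oxidative than in any glycolytic wild type library, and Mcm6 lower in every one, which 12.1% and 11% of all genes were. The other 4 overlapped and rested on oxidative libraries 3 and 5: without them Rrm2 was 0.09 (adjusted p = 0.765), Ccnb2 -0.14 (adjusted p = 0.891), Hmmr 0.43 (adjusted p = 0.388) and Top2a -0.12 (adjusted p = 0.891). In that setting 1 gene was called higher (Pcna) and 3 lower (Mcm6, Plk1 and Mki67), against 14.0% and 12.8% of all genes. Mcm6 was lost without oxidative library 4 (adjusted p = 0.0959) or glycolytic library 3 (adjusted p = 0.0636). RNA of other cells differed along with the muscle: 16 of 16 tested immune, 8 of 8 fibroblast and 10 of 11 muscle fibre genes were called higher in oxidative wild type. The immune genes summed to 321.1 to 422.8 CPM in oxidative and 25.56 to 31.89 CPM in glycolytic wild type, the fibroblast genes to 140.9 to 332.2 CPM and 52.09 to 60.28 CPM, and the fibre genes to 84.39 to 179.3 CPM and 38.09 to 43.68 CPM. Their part in the result was not tested. This comparison and those of genotype share the wild type libraries.

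Between the muscles of ECKO mice, 6 of 32 genes were called higher and 0 lower in oxidative endothelium, where 8.31% of all genes were called higher and 10.1% lower (18.4% in either direction). None was lower at an unadjusted p below 0.05 either, and DESeq2 and limma-voom called 0 lower. The genes called higher were Ccna2 (2.46 ± 0.70, SE, adjusted p = 0.0136), Ccnb1 (2.82 ± 0.74, SE, adjusted p = 0.00746), Ube2c (1.63 ± 0.53, SE, adjusted p = 0.031), Ccne2 (1.00 ± 0.23, SE, adjusted p = 0.0027), Mcm7 (0.43 ± 0.093, SE, adjusted p = 0.00154) and Mcm4 (0.34 ± 0.10, SE, adjusted p = 0.021). Ccna2 had 1.14 to 2.36 CPM in oxidative ECKO and 0.119 to 0.554 CPM in glycolytic ECKO. Ccne2 had 3.11, 4.02, 3.15, 3.48 and 3.15 CPM in oxidative ECKO, against 2.11, 2.21, 1.02, 1.41 and 1.78 CPM in glycolytic ECKO. Neither gene overlapped between the muscles. In 6 of 32 genes the oxidative ECKO libraries lay above all glycolytic ECKO libraries, and in 0 below them (5.66% and 7.59% of all genes). The 6 were Ccna2, Ccne2, Mcm7, Ube2c, Birc5 and Plk1. Ccna2, Ccnb1, Birc5 and Plk1 reached the low-count cutoff of 0.736 CPM in 0 glycolytic ECKO libraries, and Ube2c in 1. They were tested through the other groups, so the counts of this comparison, by any test, describe the genes and are no support for a direction. With oxidative ECKO libraries 4 and 5 alone, which lack Y-linked RNA as glycolytic ECKO does, 2 genes were called higher. The share over all genes in that setting is not given here. The match in Y-linked RNA and the loss of libraries cannot be told apart there. Ube2c was lost when any one of several single ECKO libraries was left out (adjusted p = 0.0522 to 0.0894), and Mcm4 without glycolytic ECKO library 2 or 5 (adjusted p = 0.0526 and 0.0584). Ccne2 and Ccna2 share exons with genes on the other strand, Ints8 over 474 bases and Exosc9 over 428 bases, and are uncertain. The immune genes summed to 41.65 to 94.09 CPM in oxidative and 15.3 to 17.55 CPM in glycolytic ECKO. The mural cell genes summed to 765.3 to 1180 CPM and 1969 to 2035 CPM, with 4 of 8 called lower in oxidative ECKO and 0 higher. The part of either was not tested. This comparison shares its libraries with those of genotype.

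The interaction compares the ECKO effect of oxidative muscle with that of glycolytic muscle. It was called for 2 of 32 genes, Mcm6 (0.34 ± 0.090, SE, adjusted p = 0.00719) and Pcna (-0.27 ± 0.074, SE, adjusted p = 0.00834), where 10.1% of all genes were called higher and 12.5% lower (22.6% in either direction). For Mcm6 the ECKO effect was 0.32 ± 0.064 in oxidative and -0.02 ± 0.064 in glycolytic muscle, and for Pcna -0.46 ± 0.052 and -0.19 ± 0.052. Both calls were lost with oxidative ECKO libraries 4 and 5 alone (adjusted p = 0.0621 and 0.106), a group of 2 libraries. None of the 21 mitotic genes was called by edgeR, DESeq2 or limma-voom, 0 of them had an unadjusted p below 0.05, and their median was -0.00442. Without oxidative wild type libraries 3 and 5, 9 genes were called higher and 1 lower (9.26% and 11.4% of all genes). Of the 9, 7 were mitotic, and Mcm6 and Pcna were again called. The answer for the mitotic genes thus depends on that pair of libraries.

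Upstream of these genes, the G1 cyclins and the inhibitors of cyclin-dependent kinases decide whether a cell leaves rest. Of 12 tested, 1 was higher and 5 were lower in oxidative ECKO than in oxidative wild type, and 3 were higher and 4 lower in glycolytic ECKO than in glycolytic wild type (median log2 fold changes -0.14 in both). Cdkn1a, which encodes the inhibitor p21, had 621.8, 657.5, 657.5, 640.0 and 621.3 CPM in glycolytic ECKO, against 285.6, 291.7, 288.7, 301.0 and 299.4 CPM in glycolytic wild type. In oxidative muscle it had 777.1, 790.5, 649.1, 456.7 and 515.6 CPM in oxidative ECKO, against 635.0, 694.5, 694.2, 695.2 and 650.6 CPM in oxidative wild type. Glycolytic wild type alone was low, with the other 3 groups above it and oxidative ECKO spread widely. The glycolytic difference was 1.12 ± 0.097, SE, adjusted p = 1.17e-09, the oxidative one -0.08 ± 0.096, SE, adjusted p = 0.567 and the interaction -1.21 ± 0.14, SE, adjusted p = 1.86e-07.

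Cdkn2b, the gene of the inhibitor p15, had 9.83, 8.63, 10.97, 6.19 and 6.86 CPM in oxidative ECKO, against 26.7, 26.3, 27.04, 24.7 and 27.9 CPM in oxidative wild type. In glycolytic muscle it had 7.74, 5.54, 7.58, 8.46 and 8.09 CPM in glycolytic ECKO, against 7.55, 10.1, 9.55, 9.51 and 8.17 CPM in glycolytic wild type. Oxidative wild type alone was high, including libraries 1, 2 and 4. It was lower in oxidative ECKO (-1.64 ± 0.13, SE, adjusted p = 9.12e-11), not called in glycolytic muscle (-0.26 ± 0.14, SE, adjusted p = 0.162), and the interaction was -1.38 ± 0.19, SE, adjusted p = 3.65e-06. Ccnd1, the gene of cyclin D1, averaged 72.1 CPM in oxidative ECKO and 101.1 CPM in oxidative wild type (-0.48 ± 0.068, SE, adjusted p = 3.18e-06), and 106.6 CPM in glycolytic ECKO and 126.9 CPM in glycolytic wild type (-0.25 ± 0.067, SE, adjusted p = 0.00543). Its kinase partner gene Cdk6 went the other way in both muscles (0.56 ± 0.092, SE, adjusted p = 2.54e-05 in oxidative and 0.41 ± 0.090, SE, adjusted p = 0.0011 in glycolytic muscle). The glycolytic groups overlapped for Ccnd1. Ccnd2, the gene of cyclin D2, was called lower in oxidative ECKO, with overlap between the groups (-0.36 ± 0.10, SE, adjusted p = 0.00716). Cdkn1c, which encodes the inhibitor p57, fell in glycolytic ECKO (-0.52 ± 0.089, SE, adjusted p = 6.21e-05).

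Of 18 tested E2F factors, pocket proteins and MuvB subunits, 2 were higher and 4 lower in oxidative ECKO, and 3 were lower in glycolytic ECKO. E2f3, an activating E2F, was called lower in both muscles, with overlap between the glycolytic groups (-0.94 ± 0.18, SE, adjusted p = 0.000147 in oxidative and -0.53 ± 0.17, SE, adjusted p = 0.0239 in glycolytic). Rbl1, the gene of the pocket protein p107, had 19.9, 17.3, 17.2, 19.4 and 20.2 CPM in oxidative ECKO, against 15.2, 11.8, 13, 15.96 and 13.4 CPM in oxidative wild type. In glycolytic muscle it had 12.5, 14.4, 13.7, 15.3 and 15.5 CPM in glycolytic ECKO, against 17.5, 15.97, 18.6, 18.2 and 18.3 CPM in glycolytic wild type. It was higher in oxidative ECKO and lower in glycolytic ECKO, each without overlap (0.44 ± 0.089, SE, adjusted p = 0.000389 and -0.31 ± 0.091, SE, adjusted p = 0.0121), and the interaction was 0.74 ± 0.13, SE, adjusted p = 8.11e-05. Rbl2, the gene of the pocket protein p130, rose in oxidative ECKO (0.29 ± 0.095, SE, adjusted p = 0.0193). Rbbp4, a histone-binding MuvB subunit, was lower in both (-0.27 ± 0.046 and -0.30 ± 0.047).

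Beyond the 33 genes, 37 further replication genes gave 5 higher and 4 lower calls in oxidative ECKO and 2 higher and 4 lower calls in glycolytic ECKO. Prim1, the DNA primase subunit, was called higher in both (0.39 ± 0.082, SE, adjusted p = 0.000565 and 0.27 ± 0.081, SE, adjusted p = 0.013), with overlap between the glycolytic groups. In oxidative ECKO, Gins4 of the helicase complex (0.33 ± 0.072, SE, adjusted p = 0.000775) and the polymerase gene Pold1 (0.31 ± 0.072, SE, adjusted p = 0.00157) rose, and Orc4 of the origin recognition complex fell (-0.30 ± 0.065, SE, adjusted p = 0.000828). In glycolytic ECKO, Rpa1, which coats single-stranded DNA, fell (-0.34 ± 0.069, SE, adjusted p = 0.000481), as did Rrm1, the large subunit of ribonucleotide reductase (-0.26 ± 0.081, SE, adjusted p = 0.0161), and Cdc6, which loads the helicase (-0.48 ± 0.15, SE, adjusted p = 0.017). For Rrm1 the groups overlapped. Of 31 further mitotic genes tested (11 more were too low), 1 was higher and 2 lower in oxidative ECKO and 2 were higher and 4 lower in glycolytic ECKO. Anln, the gene of the cleavage furrow protein anillin, was 1 of the 2 called higher in glycolytic muscle, with 5.63, 4.76, 5.20, 6.84 and 5.23 CPM in glycolytic ECKO, against 1.42, 1.78, 1.85, 1.04 and 1.46 CPM in glycolytic wild type. All its ECKO libraries were above all wild type libraries (1.88 ± 0.30, SE, adjusted p = 2.94e-05). Cdca3, a trigger of mitotic entry, had 0.117, 0, 0.256, 0.0705 and 0.238 CPM in glycolytic ECKO, against 0.800, 0.274, 1.16, 0.935 and 0.833 CPM in glycolytic wild type. All ECKO libraries were below all wild type libraries (-2.45 ± 0.73, SE, adjusted p = 0.0124). These ECKO levels all lay under the low-count cutoff of 0.736 CPM. Cdca3 was thus tested through the other groups, and its call is no support for a direction. Smc4, a condensin subunit, and the checkpoint gene Bub3 fell as well (-0.44 ± 0.087, SE, adjusted p = 0.000394 and -0.26 ± 0.036, SE, adjusted p = 3.49e-06). In oxidative muscle Bub3 fell (-0.14 ± 0.036, SE, adjusted p = 0.00344), and the condensin gene Ncaph rose (0.60 ± 0.17, SE, adjusted p = 0.00649). The kinetochore gene Spc24 was called lower there (-1.09 ± 0.39, SE, adjusted p = 0.0348). Its means were 0.859 CPM in oxidative ECKO and 1.763 CPM in oxidative wild type, and the groups overlapped. Of these 4 lists no test of the list was made, and their shares of calls can be read against the 17.4% lower and 14.6% higher in oxidative and the 15.1% and 13.9% in glycolytic muscle given above.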

How the data were processed

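RNA of sorted CD31+CD45- endothelial cells was read in 20 libraries. Per the labels' protocols these were stranded mRNA libraries sequenced from 1 end. The authors deposited estimated counts and TPM per transcript, made with kallisto per the submitters' processing notes, which also name DESeq2 and the build GRCh38.p13. The transcript IDs are those of mouse, and no source used here states how strand was handled. Of 129439 transcripts, 128643 matched GENCODE M21 (GRCm38). Estimated counts were summed over 42374 genes and rounded, and deposited TPM were summed. All 4 groups were fitted together with edgeR 4.0.16 (TMM, filterByExpr with a minimum count of 10, quasi-likelihood test, R 4.3.3), with Benjamini-Hochberg adjusted p below 0.05 as threshold. The scripts were tested on simulated data. DESeq2 1.42.0, limma-voom (limma 3.58.1), RLE factors, no filter, the compared groups alone, a replicate block and fits without single libraries were alternatives. The 33 genes and all lists were chosen with earlier results of these data known. Members called in any comparison, and Mki67, Top2a, Pcna and Cdk1, were given by library, and of further lists up to 4 genes with the smallest adjusted p per comparison could be named, which was done for the comparisons of genotype. Intervals of low counts are exact 95% intervals for counting error only. Library totals of 8013223 to 21720127 counts limit the precision of genes under 1 CPM.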

Additional observations from a re-analysis of the deposited data

Results flagged for a closer look

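Of 132 sets of 5 libraries (33 genes in 4 groups), 4 held a library far from the other 4. Chance flags about 1 in 20 such sets, so 4 of 132 is not more than chance would give. Mcm4 was lowest in oxidative ECKO library 4, at 21.4 CPM, where the nearest library had 24.6 CPM. Ccnb2 was highest in oxidative ECKO library 2, at 1.77 CPM, with 0.64 CPM in the nearest. In glycolytic ECKO, Bub1 was detected in library 2 alone, at 0.111 CPM, and Pbk in library 4 alone, at 0.0705 CPM, each from 1 count. The rate of 1 in 20 does not hold for such counts. Oxidative wild type libraries 3 and 5 were not picked out by this rule, which looks for a single library.

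The effect of genotype differed between the muscles in 2 genes by edgeR's interaction test. Mcm6 had an interaction of 0.34 on the log2 scale (adjusted p = 0.00719), and Pcna one of -0.27 (adjusted p = 0.00834).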

How the results depend on the processing

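Of 36 calls on single genes, 8 were kept in every alternative that tested them and 28 were lost in at least 1. RLE factors lost 0, DESeq2 lost 1 and limma-voom lost 14. The fits of the compared groups alone kept 24 and lost 4, and the rest of the 36 were not tested there. Genes called higher in oxidative ECKO than in oxidative wild type were 2, but 1 with no filter, 1 with the compared groups alone and 1 without oxidative ECKO libraries 1, 2 and 3. Genes called lower there were 10, but 6 by limma-voom, 5 with the groups alone and 1 without oxidative wild type libraries 3 and 5. In glycolytic muscle 10 were lower, but 4 by limma-voom and 14 without oxidative wild type libraries 3 and 5, and 0 higher, but 1 with the groups alone. Between wild type muscles 5 were higher, but 9 with no filter, 3 by limma-voom, 3 under the replicate block and 1 without oxidative wild type libraries 3 and 5, where 3 rather than 1 were lower. Between ECKO muscles 6 were higher, but 2 without oxidative ECKO libraries 1, 2 and 3 and 10 without oxidative wild type libraries 3 and 5. Of the interaction, 1 was higher, but 0 and 9 in those 2 settings. Without oxidative wild type libraries 3 and 5, 8.29% of all genes were called higher between ECKO muscles and 9.26% for the interaction. For the other settings named here the share over all genes is not given. A change there cannot be told apart from a general change in the number of calls. The cause of these changes was not tested. Without oxidative wild type libraries 3 and 5, the ECKO difference in oxidative muscle changed sign for Birc5 (0.0711), Cenpf (0.0334) and Kif20a (0.179), and the difference between wild type muscles for Ccnb2 (-0.14) and Top2a (-0.119).

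Leaving out 1 library at a time gave 1 to 2 genes higher and 6 to 14 lower in oxidative ECKO (6 without oxidative wild type library 5), 0 higher and 7 to 11 lower in glycolytic ECKO, 1 to 11 higher and 0 to 1 lower between wild type muscles (1 without oxidative wild type library 5, 2 without library 3), 4 to 7 higher and 0 lower between ECKO muscles, and 1 to 2 higher and 1 lower for the interaction. Over all genes the calls were 4058 to 4507, 3553 to 4170, 4072 to 4650, 2161 to 2617 and 2927 to 3218 in the same order. Libraries of the same number did not deviate together (r from -0.0662 to 0.0996 over 30 pairs), so no pairing by number was seen. If the spread within groups is technical, this check could not show a pairing. With the replicate block 2 genes were higher and 8 lower in oxidative ECKO, 0 and 10 in glycolytic ECKO, 3 and 1 between wild type muscles, 6 and 0 between ECKO muscles and 1 and 1 for the interaction.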
